A study of Mus musculus with 6 samples.

Results

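The genes described here are 45 genes of DNA replication and S phase entry, taken by symbol from a list ordered by molecular role and not by any measured value. They are 12 genes of the replicative helicase and its activation, 5 of the replication origin and helicase loading, and 8 of the polymerases and primase. A further 8 are of the sliding clamp, its loader and Okazaki fragment processing. The rest are 5 of deoxynucleotide supply, 3 of S phase entry and 4 of single-strand binding and chromatin assembly. Among the 21479 genes and unnamed transcripts tested, of which 13539 were named genes, all 45 were measured and passed the filter on dim probes, through 63 probes. The study exposed TM4 cells, a male mouse testicular somatic line often used as a model of Sertoli cells, to 10 µM 4-nitrophenol (PNP) for 24 h, and compared them with TM4 cells that received 0 µM. PNP is a phenol of diesel exhaust and a breakdown product of some organophosphate insecticides. Each group held 3 samples, PNP replicates 1 to 3 and untreated replicates 1 to 3, each on its own single-colour array. All samples came from 1 cell line, and the labels do not say whether replicates were separate cultures, and every p-value given here reflects variation among these 6 samples that may be only technical.

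Before S phase, the origin recognition complex, CDC6 and CDT1 load the MCM helicase onto DNA, and CDC45 and the GINS complex then switch it on. DNA polymerase alpha with primase starts each strand, the RFC complex loads the PCNA clamp, and polymerases delta and epsilon extend the strands, while FEN1 and LIG1 join the lagging strand fragments. Most of these genes, and those of deoxynucleotide synthesis, are switched on together at the end of G1 by E2F transcription factors with cyclin E, so cultures with more cells in S phase usually hold more of their RNA. In a bulk RNA sample, fewer cells in S phase and less of this RNA per cell cannot be told apart.

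The regulation these genes are known to share can be looked for in their promoters. RefSeq promoter windows of 300 bases on the GRCm38.p6 build, from 250 bases before to 50 after the start of the gene, were given for 37 of the 45 genes. Each was searched on both strands for 4 forms of the E2F binding motif, TTTGGCGC, TTTCGCGC, TTTCCCGC and TTTGCCGC. A match was found in 13 of the 37 genes (35.1%), against 704 of all 27025 genes with a window (2.605%), 8 of 18 genes of S phase control (44.4%), 8 of 30 other replication genes (26.7%) and 1 of 21 mitosis genes. By role the matches were in 5 of 8 helicase genes, 3 of 5 origin genes, 3 of 6 polymerase genes and 2 of 7 clamp genes. None was in the 5 nucleotide supply genes, the 2 S phase entry genes or the 4 single-strand binding and chromatin genes. For 9 of the 37 genes, no window had its start site within 50 bases of the outermost start of the gene annotated on the same build. They are Orc1, Cdc6, Mcm7 and Pola1, with a match, and E2f1, Dut, Tk1, Rfc1 and Rpa1, without one. Of the other 28 genes 8 had a match in a window within 50 bases of that start (28.6%). Lig1, also among the 28, had its match only in a further window 1651 bases inside. The start sites of the E2f1, Dut and Rfc1 windows lie 466, 267 and 2978 bases inside their genes. Their lack of a match therefore says nothing of the sequence before the outermost start. Those of Tk1 and Rpa1 lie 73 and 71 bases inside, so their windows cover that sequence only in part. Windows are shown for Mcm3, Rfc4 and Pcna, which were picked with earlier results known, and for Orc1, Cdc6 and Mcm6, which were added after their values were seen, as a called gene and 2 further genes with matches. Gins2 is among the 8 genes for which no window was given, so it was not searched. The capitals mark the matches, and each sequence reads 5′ to 3′ on the strand of the gene.
Mcm3: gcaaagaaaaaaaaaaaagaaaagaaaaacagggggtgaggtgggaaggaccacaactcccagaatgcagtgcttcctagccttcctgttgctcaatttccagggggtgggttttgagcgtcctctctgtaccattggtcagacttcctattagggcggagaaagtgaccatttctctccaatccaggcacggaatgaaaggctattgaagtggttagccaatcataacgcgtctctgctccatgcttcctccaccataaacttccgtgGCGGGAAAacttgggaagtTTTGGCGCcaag
Mcm6: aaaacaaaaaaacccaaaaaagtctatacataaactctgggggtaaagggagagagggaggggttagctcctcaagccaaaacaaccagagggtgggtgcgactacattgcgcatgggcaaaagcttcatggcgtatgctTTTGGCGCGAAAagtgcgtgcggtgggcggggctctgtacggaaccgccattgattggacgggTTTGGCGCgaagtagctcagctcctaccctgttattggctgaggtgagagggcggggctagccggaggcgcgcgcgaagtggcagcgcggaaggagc
Orc1: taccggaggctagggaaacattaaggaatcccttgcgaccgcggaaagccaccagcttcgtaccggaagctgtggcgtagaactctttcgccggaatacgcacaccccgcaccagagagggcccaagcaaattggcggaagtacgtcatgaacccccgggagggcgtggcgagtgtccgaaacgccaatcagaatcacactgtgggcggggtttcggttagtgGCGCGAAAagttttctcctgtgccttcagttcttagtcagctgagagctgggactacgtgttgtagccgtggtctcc
Cdc6: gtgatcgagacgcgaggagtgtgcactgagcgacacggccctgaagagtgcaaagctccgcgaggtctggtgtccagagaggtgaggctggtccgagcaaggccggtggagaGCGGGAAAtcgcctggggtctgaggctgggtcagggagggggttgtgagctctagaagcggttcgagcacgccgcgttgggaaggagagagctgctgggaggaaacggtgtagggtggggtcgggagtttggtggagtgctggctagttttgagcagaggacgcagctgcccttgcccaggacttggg
Pcna: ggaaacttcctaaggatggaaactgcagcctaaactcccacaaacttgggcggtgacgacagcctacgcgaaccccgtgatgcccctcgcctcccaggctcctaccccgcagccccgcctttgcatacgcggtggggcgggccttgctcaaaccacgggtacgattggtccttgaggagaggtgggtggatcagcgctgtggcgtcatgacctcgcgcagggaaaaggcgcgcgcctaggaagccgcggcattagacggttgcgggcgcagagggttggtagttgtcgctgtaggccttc
Rfc4: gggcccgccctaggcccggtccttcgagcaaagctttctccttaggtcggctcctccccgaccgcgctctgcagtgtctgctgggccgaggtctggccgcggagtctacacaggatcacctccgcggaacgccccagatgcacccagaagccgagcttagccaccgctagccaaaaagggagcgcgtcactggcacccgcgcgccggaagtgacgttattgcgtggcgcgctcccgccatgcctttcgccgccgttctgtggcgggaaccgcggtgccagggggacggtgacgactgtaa

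The Mcm3 window is chr1:20820263-20820562 on the minus strand, and its matches lie at bases 270 to 277 and 289 to 296 of the window, after the start of the gene. The Mcm6 window, chr1:128359656-128359955 on the minus strand, holds 3 matches, 2 of which overlap at bases 141 to 152. Orc1 has a match at bases 224 to 231 of chr4:108579204-108579503 on the plus strand, just before the start used for its window, and Cdc6 at bases 113 to 120 of chr11:98907901-98908200 on the plus strand. The start sites of these windows lie 3749 and 442 bases inside the outermost annotated starts of Orc1 and Cdc6, while those of Mcm3, Mcm6, Pcna and Rfc4 lie at them. No match to these letters is in the windows of Pcna (chr2:132253131-132253430) and Rfc4 (chr16:23127681-23127980), both on the minus strand. A match is a description of letters and not a shown binding site. The 13 genes with a match and the 24 without had nearly the same median log2 difference between PNP and untreated cells, -0.26 and -0.25. Negative were 12 of the 13 and 17 of the 24. Both had a median of -0.26 between the array positions described next, with 12 of the 13 and 20 of the 24 negative. A difference between these sets was not tested.

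The 6 arrays lay as pairs on 3 slides, and the arrays of a slide are called position 2 and position 1 after their numbers in the deposited array identifiers. Position 2 held PNP replicates 1 and 3 and untreated replicate 2, and position 1 held PNP replicate 2 and untreated replicates 1 and 3, so position and treatment are only partly separate. Each array carried a different RNA sample, so an effect of the place on the slide and a difference between the samples placed there cannot be told apart. The levels given are log2 processed signals minus the 75th percentile of the array. Before that scaling the 75th percentile was lower at position 2 on every slide, with log2 differences of -0.25, -0.08 and -0.17 for slides 3, 2 and 1. Between 47.8% and 57.9% of probes were well above background on an array, and 0 spots were saturated. Of the Sertoli cell markers 13 of 16 passed the filter, Sox9, Wt1 and Gata4 among them, while Fshr, Amh and Cldn11 were above background on no array. None of 6 Leydig cell and 5 endothelial markers passed, and 1 of the Leydig cell markers, Insl3, had no probe. However, 5 of 5 peritubular myoid, 3 of 7 germ cell and 2 of 5 macrophage markers passed. Their part in the results was not tested.

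**Figure D1:**
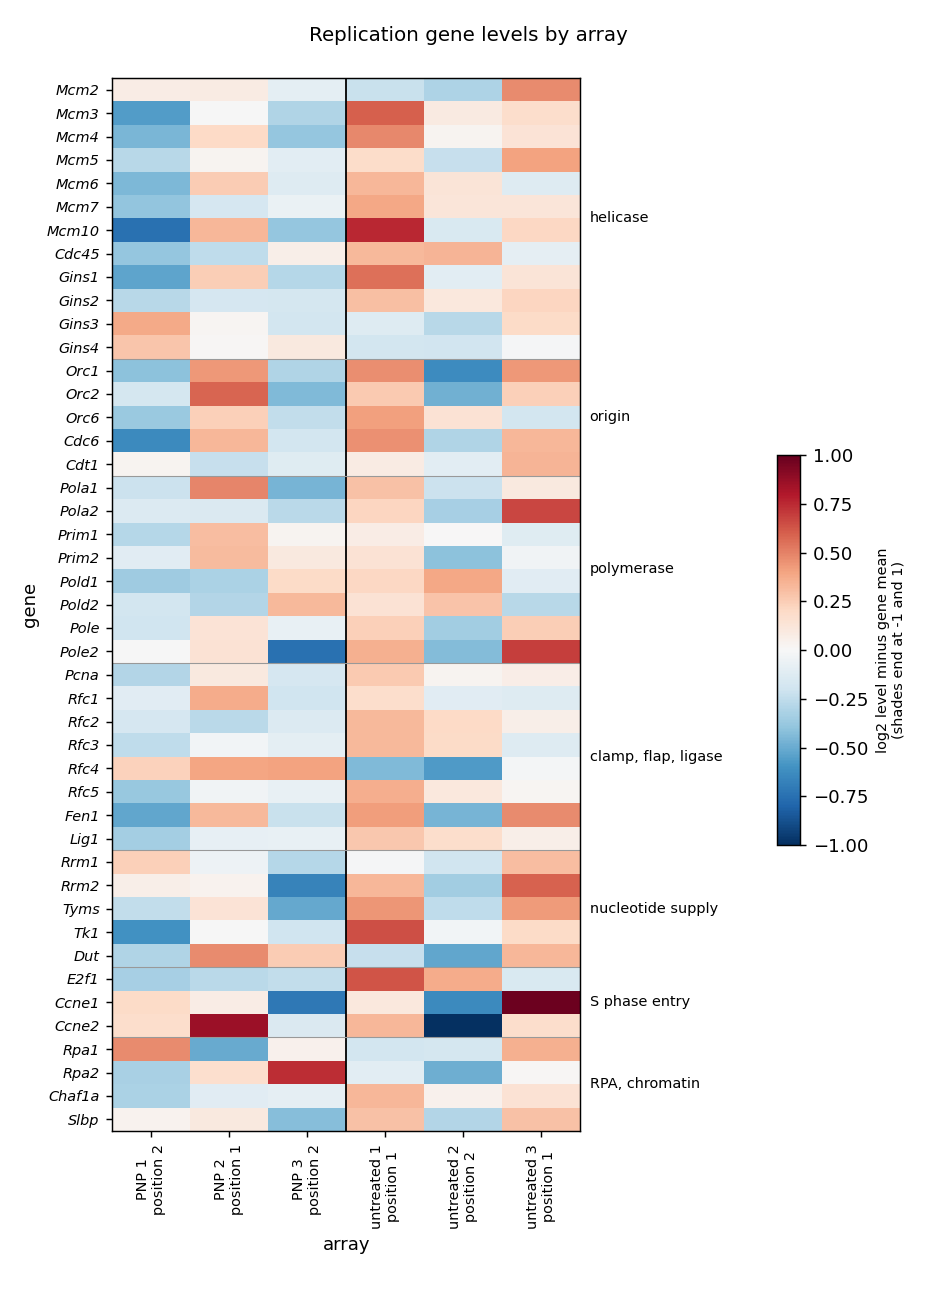
Log2 level of each of the 45 genes on each array minus the mean of that gene over the 6 arrays, with genes down the page by role and PNP arrays left of untreated arrays. Blue fields prevail in PNP 1, PNP 3 and untreated 2, the arrays of position 2, where 11, 10 and 17 of the 45 genes lie above their own mean. PNP 2, untreated 1 and untreated 3 have 28, 37 and 33 genes above it.

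With PNP, most replication genes had lower mean levels than in untreated cells, but none passed the test. The log2 difference was negative for 34 of 45 genes (75.6%), with a median of -0.25, where all 21479 units had 55.2% negative and a median of -0.04, and named genes 62.2% and -0.09. Of the 45 genes 0 had an adjusted p under 0.05 in limma, and of all units 0 as well (0%). At an unadjusted p under 0.05, 2 were lower, Mcm3 and E2f1, and 1 was higher, Rfc4. These are 4.44% and 2.22% of the 45 genes, against 3.07% of all units lower and 6.86% higher. Of named genes 2.9% were lower and 3.64% higher. The 3 PNP arrays were all below the 3 untreated arrays for 8 genes (17.8%, against 7.83% of all units), namely Mcm3, Mcm7, Gins2, Rfc2, Rfc5, Lig1, E2f1 and Chaf1a. They were all above for 2 genes, Gins4 and Rfc4 (4.44%, against 7.6% of all units). Of named genes 8.77% were apart and lower, and 5.01% apart and higher. The mean level of the 13 measured Sertoli markers also differed without overlap, from -1.12 to -0.98 on PNP arrays and from -0.91 to -0.81 on untreated arrays, and its part in these values was not tested.

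The helicase genes had a median log2 difference of -0.38 between PNP and untreated cells, and 9 of 12 were negative. Mcm3, a subunit of the MCM2-7 ring, had normalized log2 levels of 3.58, 4.14 and 3.84 in PNP replicates 1 to 3, against 4.74, 4.22 and 4.31 in untreated replicates 1 to 3. The groups did not overlap, but the highest PNP array came close to the lowest untreated array, and the log2 difference was -0.57 ± 0.24 (SE, n = 3 per group; limma adjusted p = 0.485). Mcm7, another ring subunit, had 4.34, 4.58 and 4.67 in PNP cells and 5.13, 4.87 and 4.86 in untreated cells, a log2 difference of -0.42 ± 0.20 (limma adjusted p = 0.534). All 3 PNP arrays of Mcm7 were below the untreated ones. Gins2, a subunit of the GINS complex that activates the helicase, had the least spread of these genes, with 3.09, 3.19 and 3.19 in PNP cells and 3.66, 3.47 and 3.58 in untreated cells. Its log2 difference was -0.41 ± 0.19 (limma adjusted p = 0.514), and again the groups were apart.

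The other MCM ring subunits were less even. Mcm4 had log2 levels of 3.21, 3.87 and 3.28 in PNP cells and 4.15, 3.69 and 3.80 in untreated cells, a difference of -0.43 ± 0.25, and PNP replicate 2 lay above untreated replicates 2 and 3. Mcm5 differed by -0.24 ± 0.23 and Mcm6 by -0.22 ± 0.25, with overlapping groups in both. Mcm2 differed by 0.04 ± 0.25, with levels of 2.29, 2.30 and 2.12 in PNP cells inside the untreated range of 1.91 to 2.69. The 6 ring subunits therefore ran from -0.57 to 0.04, and differences between subunits were not tested.

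The origin genes had a median log2 difference of -0.22, with 5 of 5 negative at their brightest probes and groups that overlapped in every case. Orc2 was near 0, at -0.02 ± 0.32. The second probes of Orc1 and Orc2 had the other sign, with 0.04 and 0.15, while that of Cdc6 had -0.48. Cdc6, the ATPase that loads MCM with the origin recognition complex, had log2 levels of -0.55, 0.42 and -0.09 in PNP cells and 0.55, -0.22 and 0.42 in untreated cells. Low values of Cdc6 stood in both groups, and the difference was -0.32 ± 0.31 (limma adjusted p = 0.742). Cdt1, its loading partner, differed by -0.22 ± 0.21, with 3.22, 2.96 and 3.06 in PNP cells and 3.27, 3.08 and 3.53 in untreated cells. Polymerase and primase genes had a median of -0.11, with 6 of 8 negative. Pola2, the accessory subunit of polymerase alpha, differed by -0.37 ± 0.27, and Pold1, the catalytic subunit of polymerase delta, by -0.32 ± 0.24. Pola1, the catalytic subunit of polymerase alpha, differed by -0.12 ± 0.28, and the groups of all 3 genes overlapped.

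Clamp and fragment joining genes had a median log2 difference of -0.27, with 6 of 8 negative. Pcna, the sliding clamp, had log2 levels of 4.80, 5.19 and 4.92 in PNP cells and 5.36, 5.12 and 5.16 in untreated cells, a difference of -0.24 ± 0.20 (limma adjusted p = 0.712), and PNP replicate 2 reached into the untreated range. The clamp loader genes diverged. Rfc2 had 2.92, 2.82 and 2.95 in PNP cells and 3.41, 3.28 and 3.14 in untreated cells, a difference of -0.38 ± 0.19 (limma adjusted p = 0.539) with the groups apart. Rfc4, a subunit of the same loader, had 3.24, 3.40 and 3.41 in PNP cells and 2.57, 2.44 and 2.98 in untreated cells, apart in the opposite direction, with a difference of 0.68 ± 0.22 (limma adjusted p = 0.358, unadjusted 0.013). This was the smallest p of the 45 genes in this comparison, and the second Rfc4 probe did not show it, as given with the probes.

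Deoxynucleotide supply genes had a median log2 difference of -0.38, with 4 of 5 negative. Tk1, the thymidine kinase of the salvage pathway, had log2 levels of 4.40, 5.00 and 4.80 in PNP cells and 5.64, 4.98 and 5.20 in untreated cells, a difference of -0.54 ± 0.26 (limma adjusted p = 0.534). PNP replicate 2 was just above untreated replicate 2, so the groups overlapped. Tyms, thymidylate synthase, differed by -0.41 ± 0.27, and Rrm2, the regulated subunit of ribonucleotide reductase, by -0.38 ± 0.31. Both overlapped between the groups.

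E2f1, the transcription factor that drives much of this programme, had log2 levels of 2.37, 2.43 and 2.45 in PNP cells and 3.33, 3.07 and 2.55 in untreated cells. The PNP arrays were close together and the untreated arrays spread widely above them, with a difference of -0.57 ± 0.24 (limma adjusted p = 0.489, unadjusted 0.044). Ccne1, cyclin E1, differed by -0.30 ± 0.42 with overlapping groups. Ccne2, cyclin E2, was near the limit of detection, well above background on 3 of 3 PNP arrays and 1 of 3 untreated arrays, and had -3.90, -3.21 and -4.22 in PNP cells and -3.74, -5.47 and -3.90 in untreated cells. Its difference was 0.59 ± 0.47 and depended on background correction, since it was -0.02 with normexp correction. Of the remaining genes, Chaf1a, the large subunit of the chromatin assembly factor that follows the fork, differed by -0.34 ± 0.20 with the groups apart, and Rpa2, of the single-strand binding protein, by 0.39 ± 0.30 with the groups overlapping.

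**Figure D2:**
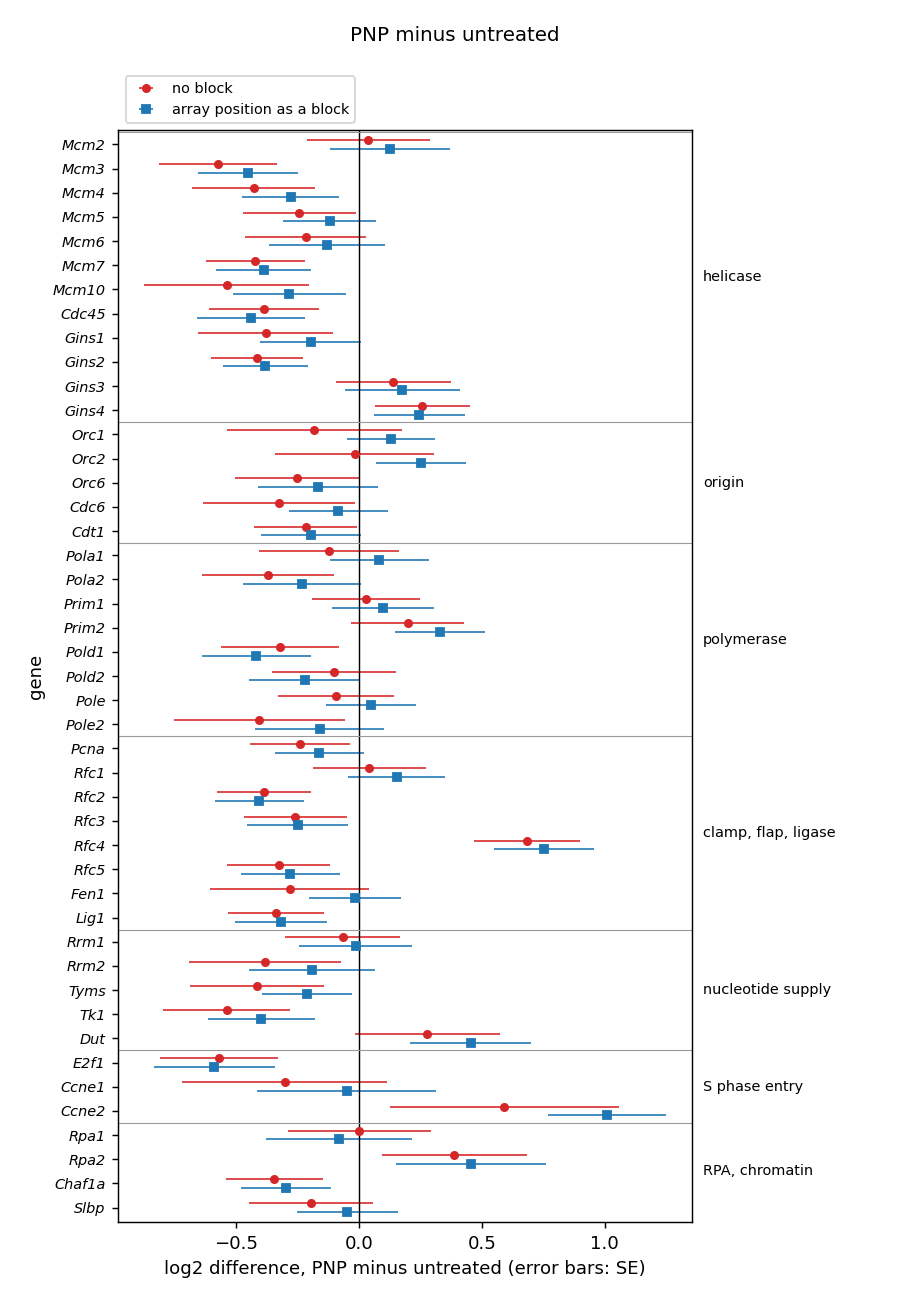
Log2 difference, PNP minus untreated, of the 45 genes (points) with its standard error (bars), without a block in red circles and with array position as a block in blue squares. Most points lie left of 0, 34 of 45 without the block and 31 with it, and Rfc4 lies furthest to the right among genes above background on all arrays.

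Array position separated the replication genes more than treatment did in these counts. The log2 difference of position 2 minus position 1, with treatment kept as a term, was negative for 38 of 45 genes (84.4%), with a median of -0.26, while all units had 43.7% negative and a median of 0.06. In limma 2 of the 45 genes were lower at position 2 with an adjusted p under 0.05, Orc1 and Ccne2, and none was higher. That is 4.44% of the genes, against 566 of all units called in either direction (2.64%), so the share called was not far from the background. At an unadjusted p under 0.05, 11 genes were lower (24.4%, against 9.42% of all units) and 0 higher (against 11.1% of all units). The 3 position 2 arrays were all below the 3 position 1 arrays for 15 genes (33.3%, against 10.9% of all units), and all above for 0 genes (against 11.5%). Leaving out any 1 of the untreated arrays or PNP replicate 2 left 0 of the 45 genes called, and 0 of all units. Without PNP replicate 3, 0 of the 45 genes were called, against 0.233% of all units. Leaving out PNP replicate 1 gave 3, Orc1, Pole2 and Ccne2 (6.67%, against 4.98% of all units). Centring arrays on their median gave 0, against 3.25% of all units. With slide as a fixed block and treatment kept as a term, limma called 10 genes lower, Orc1, Orc2, Mcm10, Pola1, Pole2, Fen1, Rrm2, Tyms, Ccne1 and Ccne2 (22.2%, against 13.1% of all units called in either direction). A difference between the comparisons of position and of treatment was not tested.

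The origin genes stood lowest at position 2 after the 3 S phase entry genes, with a median log2 difference of -0.72 and 5 of 5 negative. Orc1, the largest subunit of the origin recognition complex, whose protein is degraded in S phase in human cells, had log2 levels of -0.80, -0.69 and -1.01 on the position 2 arrays of PNP replicates 1 and 3 and untreated replicate 2. On the position 1 arrays of PNP replicate 2 and untreated replicates 1 and 3 it had 0.05, 0.08 and 0.04. The position 1 values were nearly identical across treatment, and the difference was -0.93 ± 0.18 (SE, n = 3 per position; limma adjusted p = 0.047). Orc2, another subunit of the complex, had 1.10, 0.83 and 0.79 at position 2 and 1.86, 1.53 and 1.51 at position 1, apart by -0.81 ± 0.18, and did not pass (limma adjusted p = 0.063). Cdc6 had -0.55, -0.09 and -0.22 at position 2 and 0.42, 0.55 and 0.42 at position 1, apart by -0.72 ± 0.20 (limma adjusted p = 0.102). Cdt1, whose product is controlled largely by degradation, differed by only -0.07 ± 0.20 with overlapping positions.

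The cyclin E genes had differences of the same sign. Ccne2 had log2 levels of -3.90, -4.22 and -5.47 at position 2 and -3.21, -3.74 and -3.90 at position 1, with a difference of -1.25 ± 0.24 (limma adjusted p = 0.046). PNP replicate 1 at position 2 was level with untreated replicate 3 at position 1, so the call rests on the term for treatment in the fit and on values near the limit of detection. With normexp correction the difference was -0.11 (limma adjusted p = 0.764), and the call was kept in only 4 of 11 other settings and in 1 of 6 with an array left out. Ccne1 differed by -0.76 ± 0.36 (limma adjusted p = 0.297). E2f1 itself differed by 0.06 ± 0.25, with overlapping positions, and this sign turned under other settings.

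Among helicase genes Mcm10, which helps to activate the loaded helicase, had log2 levels of 1.83, 2.19 and 2.42 at position 2 and 2.90, 3.33 and 2.78 at position 1, a difference of -0.76 ± 0.23 (limma adjusted p = 0.122). Gins1, of the GINS complex, had 0.90, 1.15 and 1.32 at position 2 and 1.67, 1.98 and 1.56 at position 1, a difference of -0.55 ± 0.21 (limma adjusted p = 0.191). In both genes every position 2 array was below every position 1 array. The ring subunits were negative at their brightest probes, Mcm4 by -0.45 ± 0.20, Mcm5 by -0.37 ± 0.19, Mcm3 by -0.36 ± 0.20, Mcm2 by -0.26 ± 0.24, Mcm6 by -0.26 ± 0.24 and Mcm7 by -0.10 ± 0.19. The second Mcm7 probe had 0.001 ± 0.23, and the brightest had 0.10 for PNP replicate 3 minus PNP replicate 2.

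Fen1, the flap nuclease that trims lagging strand fragments, had log2 levels of 2.77, 3.07 and 2.82 at position 2 and 3.61, 3.70 and 3.76 at position 1. These are well apart and tight within each position, with a difference of -0.80 ± 0.19 that did not pass (limma adjusted p = 0.071). Pcna differed by -0.24 ± 0.18, Rfc1 by -0.33 ± 0.20 and Rfc4 by -0.21 ± 0.20. Pola1 had 1.02, 0.78 and 1.03 at position 2 and 1.73, 1.53 and 1.34 at position 1, a difference of -0.62 ± 0.20 (limma adjusted p = 0.140). Pole2, the accessory subunit of polymerase epsilon, had -1.76, -2.51 and -2.19 at position 2 and -1.62, -1.41 and -1.07 at position 1, a difference of -0.73 ± 0.26 (limma adjusted p = 0.172). All 3 position 2 arrays were below the position 1 arrays in both polymerase genes.

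All 5 deoxynucleotide supply genes were negative, with a median log2 difference of -0.53. Tyms had log2 levels of 3.12, 2.86 and 3.12 at position 2 and 3.51, 3.81 and 3.80 at position 1, without overlap, and a difference of -0.60 ± 0.18 (limma adjusted p = 0.124). Rrm2 had 3.30, 2.57 and 2.89 at position 2 and 3.27, 3.57 and 3.82 at position 1, overlapping through PNP replicates 1 and 2, with a difference of -0.57 ± 0.26 (limma adjusted p = 0.265). Slbp, which binds the stem loop of histone mRNAs, differed by -0.44 ± 0.21 without overlap (limma adjusted p = 0.280). Rpa1, of the single-strand binding protein, differed by 0.25 ± 0.30 with overlapping positions.

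**Figure D3:**
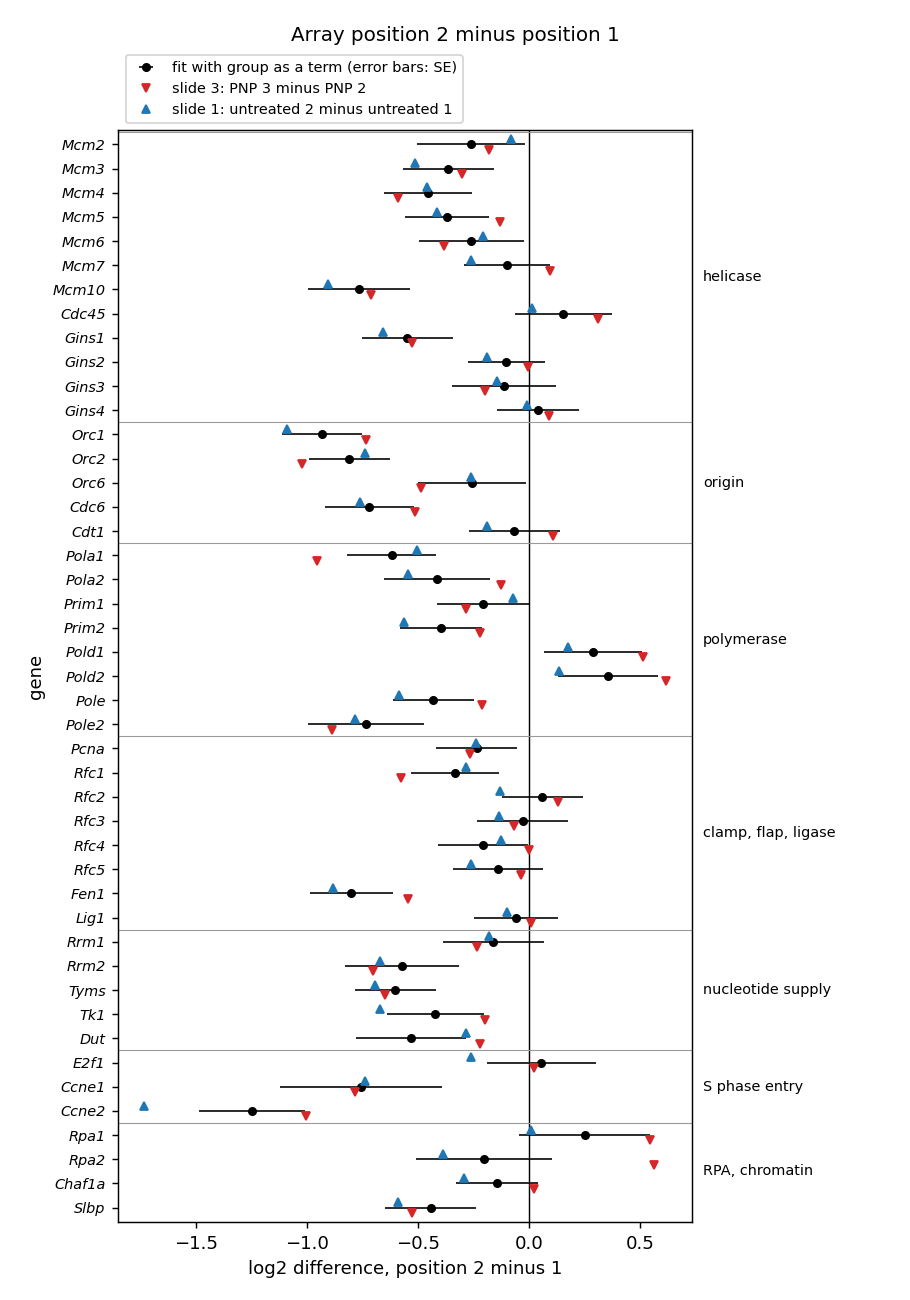
Log2 difference, position 2 minus position 1, of the 45 genes from the fit with treatment as a term (black circles, bars are standard errors), with the value of slide 3, PNP 3 minus PNP 2 (red triangles pointing down), and of slide 1, untreated 2 minus untreated 1 (blue triangles pointing up). The black circles lie left of 0 for 38 genes, and both triangles lie left of 0 for 32.

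Slides 3 and 1 each held arrays of 1 group, so their differences contain no treatment. On slide 3, PNP replicate 3 (position 2) was below PNP replicate 2 (position 1) for 32 of 45 genes (71.1%), with a median log2 difference of -0.22. All units there had 44.1% negative and a median of 0.07. On slide 1, untreated replicate 2 (position 2) was below untreated replicate 1 (position 1) for 41 of 45 genes (91.1%), with a median of -0.28. All units there had 47.7% negative and a median of 0.02. Both were negative for 32 genes (71.1%, against 31.2% of all units) and both positive for 4 (against 8479 of all 21479 units). Orc1 had -0.74 on slide 3 and -1.09 on slide 1, and Fen1 -0.54 and -0.88. Slide 2 held PNP replicate 1 at position 2 and untreated replicate 3 at position 1, so that treatment and position cannot be told apart there. On it 38 of 45 genes were negative (84.4%, against 45.1% of all units), with a median of -0.40, where all units had 0.05. With 1 array in each place of a slide, these differences have no error of their own.

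By array, the median over the 45 genes of the log2 level minus the mean of the gene was -0.27, 0.08 and -0.17 for PNP replicates 1 to 3, and 0.30, -0.17 and 0.17 for untreated replicates 1 to 3. The 3 values below 0 are those of position 2 and the 3 above 0 those of position 1. The 35 other replication genes had the same signs, with -0.12, 0.006 and -0.08 in the PNP arrays and 0.10, -0.07 and 0.07 in the untreated arrays. So did the 23 genes of S phase control except in PNP replicate 2, with -0.21, -0.02 and -0.17, and 0.29, -0.13 and 0.11. The 11 other nucleotide supply genes did not, with -0.23, -0.06 and -0.13, and 0.19, 0.09 and 0.20. The 24 mitosis genes, which mark a later phase of the cycle, had 0.08, -0.13 and -0.02 in the PNP arrays and 0.06, 0.05 and 0.01 in the untreated arrays, and did not follow position in that way. Their median log2 difference was 0.03 for position 2 minus position 1, with 14 of 24 positive and 0 called in limma (1 at an unadjusted p under 0.05), and -0.12 for PNP minus untreated. The mean log2 level of the measured macrophage markers Cd68 and Csf1r was 1.39 to 2.20 at position 2 and 1.11 to 1.60 at position 1. Cd68 itself, a lysosomal protein, was higher at position 2 by 1.16 ± 0.20 (limma adjusted p = 0.036), while Csf1r differed by 0.10 ± 0.28. Adgre1 and Ptprc were above background on no array. Lyz2, above background on only 1 PNP and 1 untreated array, went the other way, with means of -6.27 at position 2 and -4.11 at position 1. The part of these markers in the position differences was not tested.

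**Figure D4:**
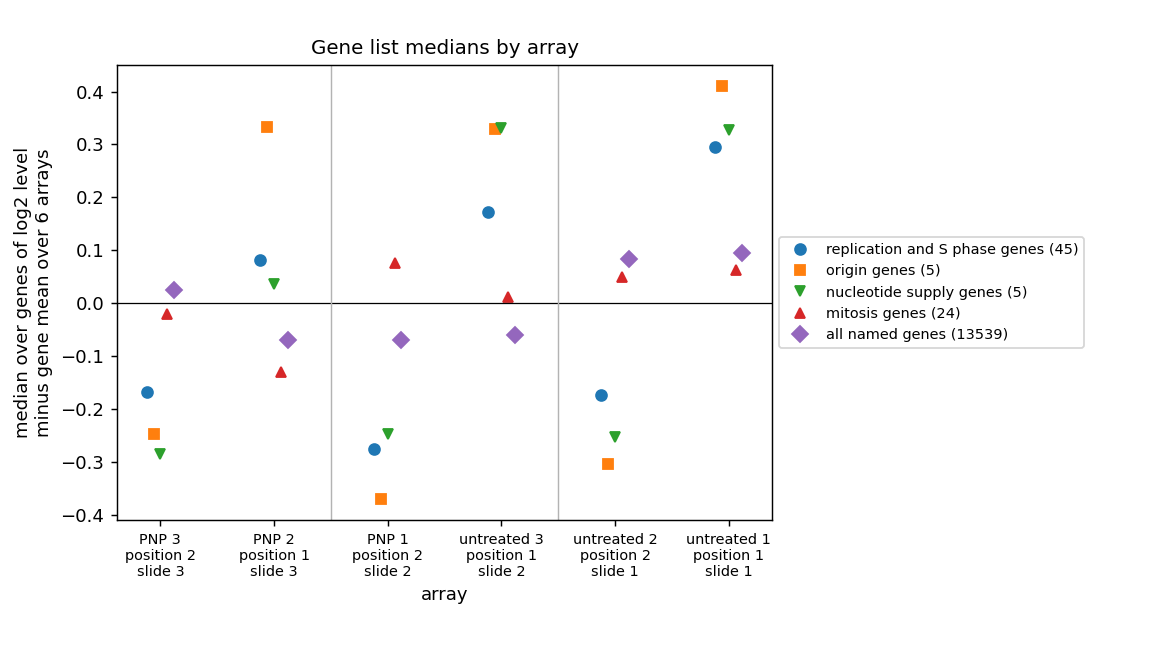
Median over the genes of each list of the log2 level minus the mean of the gene over 6 arrays, by array, with the arrays of a slide side by side and position 2 left of position 1. The 45 replication and S phase genes lie below 0 at position 2 and above 0 at position 1 on all 3 slides, from -0.27 to 0.30, while the mitosis genes stay between -0.13 and 0.08.

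With position as a block, the PNP differences of the replication genes moved toward those of all genes. The median log2 difference was -0.16, where all units had -0.06, and 31 of 45 were negative (68.9%, against 57.1% of all units). Named genes had -0.12 and 63.7%, nearer to the 45 genes. Within position 1, with PNP replicate 2 against untreated replicates 1 and 3, the median was -0.15, where all units had -0.04. Within position 2, with PNP replicates 1 and 3 against untreated replicate 2, it was -0.10, the same as the -0.10 of all units. Of the 45 genes 33 were negative within position 1 and 24 within position 2. Negative within both positions were 19 genes, among them Mcm3, Mcm7, Gins2, Rfc2, E2f1 and Chaf1a, and positive within both were 7, Gins4, Orc2, Prim2, Rfc4, Dut, Ccne2 and Rpa2. The same counts over all units are not given here, so these counts only describe the list. With the block limma called 0 of 45 genes, and 0 of all units (0%). At an unadjusted p under 0.05, 1 gene was lower, E2f1 (-0.59 ± 0.25; 2.22%, against 5.33% of all units). On the higher side were 2 genes (4.44%, against 8.36% of all units and 5.26% of named genes), Rfc4 with 0.75 ± 0.20 and Ccne2 with 1.01 ± 0.24. Ccne2 passed the filter through the PNP arrays, and its difference was 0.020 with the block and normexp correction together. The 5 origin genes then had a median of -0.08, with 3 negative and 2 positive. No gene differed in its PNP effect between the positions in limma (0 of all units adjusted, 341 at an unadjusted p under 0.05), a test with 2 residual degrees of freedom.

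More than 1 probe was measured for 17 of the 45 genes. The probes of a gene had the same sign for 12 of the 17 in the PNP comparison and for 13 in the position comparison, with a median gap between probes of 0.16 and 0.13 on the log2 scale. The 3 Mcm3 probes had PNP log2 differences of -0.57, -0.40 and -0.40, and the second Gins2 probe had -0.57. The second Rfc4 probe had log2 levels of 2.53, 2.93 and 2.94 in PNP cells and 2.95, 3.03 and 2.64 in untreated cells, a difference of -0.07 ± 0.22, so the separation at the first probe was not seen at the second. For Gins4 the first probe had a difference of 0.26 and the second -0.29, each with the groups apart in opposite directions. Pola1 had -0.12 at the first probe and 0.66 at the second in the PNP comparison, but -0.62 and -0.56 in the position comparison. The second Orc1 probe had -1.83, -2.55 and -3.35 at position 2 and -1.24, -1.61 and -0.79 at position 1, also without overlap, with a difference of -1.55 ± 0.37.

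**Figure D5:**
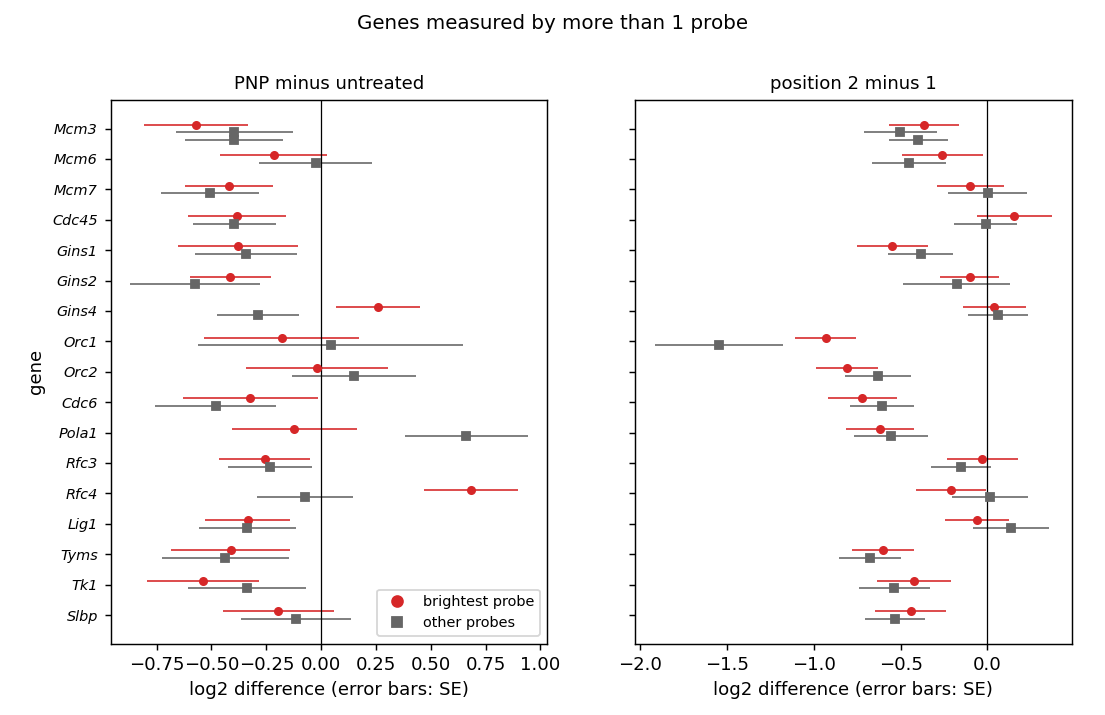
Log2 differences of every probe of the 17 genes with more than 1 probe, PNP minus untreated on the left and position 2 minus position 1 on the right, with standard errors as bars; red circles are the brightest probe of a gene and grey squares the others. Probes of Rfc4, Gins4, Pola1, Orc1 and Orc2 stand on opposite sides of 0 on the left, and the Orc1 probes stand furthest left on the right.

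Further lists of the same pathways had medians with PNP of -0.30 to -0.12, beside -0.09 with 62.2% negative for all named genes. Of 35 other replication genes 0 were called with PNP in limma (1 at an unadjusted p under 0.05, lower), with a median log2 difference of -0.12 and 22 negative (62.9%). Timeless and Tipin, partners that protect the fork, differed by -0.52 ± 0.22 and -0.65 ± 0.29, and Chaf1b, of the chromatin assembly factor, by -0.44 ± 0.20. Of 23 genes of S phase control 0 were called in limma (1 at an unadjusted p under 0.05, lower), with a median of -0.17. Ccnd3 and Ccnd1, D-type cyclins of G1, differed by -0.59 ± 0.23 and -0.56 ± 0.27, and Mybl2, a cell cycle transcription factor, by -0.53 ± 0.25. Of 11 other nucleotide supply genes 0 were called in limma (1 at an unadjusted p under 0.05, lower), with 10 negative and a median of -0.30. Shmt1, a folate enzyme of thymidylate synthesis, differed by -0.82 ± 0.30 (limma adjusted p = 0.421), and Cad, of pyrimidine synthesis, by -0.36 ± 0.20.

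Between positions the median log2 difference was -0.13 for the other replication genes, with 25 of 35 negative, -0.23 for S phase control, with 14 of 23 negative, and -0.03 for other nucleotide supply, with 6 of 11 negative. In limma 0 of the first and the third list were called, and 1 of the second, Cdk6, beside 2.64% of all units. Cdk6 is named after its values were seen. At an unadjusted p under 0.05 in limma, 8 genes were lower and 1 higher in the first list. In the second list 9 were lower and 3 higher, and in the third 4 and 0. Of all units 9.42% were lower and 11.1% higher. Cdk6, the partner kinase of D-type cyclins, had log2 levels of 0.37, 0.06 and -0.43 at position 2 and 1.89, 1.34 and 1.66 at position 1. The position 2 arrays of Cdk6 were far below the position 1 arrays in both groups, with a difference of -1.80 ± 0.20 (limma adjusted p = 0.017). Its PNP difference was -0.08 ± 0.62.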

How the data were processed

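RNA was prepared with TRIzol, and Cy3-labelled copies of it were hybridised, per the labels. The deposited intensity values are background-subtracted processed signals, not normalized between arrays, made with Agilent Feature Extraction. Its version is 11.5.1.1 in the file headers, whereas the submitters' processing notes give 10.7. A deposited log2 value matrix served as an alternative, and how the authors normalized it is not given in the sources used here.

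Log2 processed signals, averaged over spots that were not outliers, were reduced by the 75th percentile of the array. The filter asked for signal well above background on every array of a group, in either group, and the brightest probe stood for a gene. Symbols came from RefSeq accessions (33767 of 56605 probes). A linear model in limma 3.58.1 (R 4.3.3, with statmod 1.5.0 and version 1.17.8 of data.table), checked on simulated data, compared treatment and array position over 21479 units (two-sided, Benjamini-Hochberg, threshold 0.05). The number of arrays limits the precision. Alternatives changed background correction, scaling, filter, variance model, weights, blocks, probes and samples.

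The genes and lists were chosen with earlier results of these data known. Named with values are 15 set genes and, in each role, the 2 with the smallest p in each comparison, and in 3 further lists the 3 with the smallest p for PNP; 1 of these is not reported here.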

Additional observations from a re-analysis of the deposited data

How the results depend on the processing

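Between replicates, the median of the 45 genes on an array varied with an SD of 0.22 (log2), and 3 arrays a group limit what can be called. The PNP count stayed at 0 in all alternatives but array weights, which gave 3 (Mcm3, Rfc4 and E2f1) with untreated replicate 1 weighted 9.11 and every other array below 1. That is 6.67% of the genes, against 6.36% of all units. The counts of 0 are limma counts, with 0 to 9 genes at an unadjusted p under 0.05. The replicate block gave 0 and a median of -0.25, and same-numbered arrays, which differ in position, deviated with correlations of -0.41, -0.55 and -0.41. The PNP median ran from -0.40 (slide as a fixed block, which rests on slide 2) to -0.06 (position block with normexp), and from -0.36 to -0.16 when 1 array was left out. Median centring moved the median of all units to -0.15 and that of the 45 genes to -0.36. The sign of the PNP difference held in all 24 settings for 18 negative genes and 1 positive. That of the position difference held for 28 negative genes and 2 positive in all 19 settings, or in 18 for Ccne2, which was not measured in every setting. Shares over all units are not given here for these counts.

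The position count of 2 (4.44%, against 2.64% of all units) became 4 with normexp (8.89% against 5.52%), 5 with a robust variance trend (11.1% against 6.48%), 17 with array weights (37.8% against 23.3%), 10 with slide as a fixed block (22.2% against 13.1%), 1 with no treatment term (2.22% against 2.13%), 0 with median centring (3.25% of all units) and 0 with no filter (0 of all units). Leaving out 1 array gave 0 to 3 (0% to 6.67%, against 0% to 4.98% of all units). The causes were not tested.

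Some signs turned. In the PNP log2 difference, Ccne2 had -0.018 with normexp. Mcm2 had -0.065 with median centring, -0.043 within position 1, -0.40 with the fixed slide block and -0.10 to 0.29 with 1 array left out, and Rpa2 had -0.33 with that slide block. Pola1 had 0.27 by the median of its probes, 0.084 with position as a block, 0.29 within position 1 and -0.40 to 0.078 with 1 array left out. Within position 1 Mcm6 had 0.15. Within position 2 Mcm5 had 0.034, Cdt1 0.056, Pola2 0.13, Rrm2 0.041 and Ccne1 0.37. With position as a block and normexp Mcm5 had 0.056, Mcm6 0.031, Pola1 0.16 and Ccne1 0.056, and Ccne1 ran from -0.69 to 0.12 with 1 array left out.

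In the position log2 difference, E2f1 had -0.014 with quantile normalization, -0.0057 with the authors' values, -0.15 with array weights, -0.12 with the fixed slide block and -0.14 with no treatment term, where Rfc4 had 0.043. With 1 array left out E2f1 ran from -0.12 to 0.21, Cdt1 from -0.32 to 0.18, Mcm6 from -0.54 to 0.025 and Rpa1 from -0.26 to 0.76.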
